A study of Mus musculus with 20 samples.

Results

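Hoxa2, Hoxa3, Hoxa5, Hoxa7, Hoxa9, Hoxa10, Hoxb2, Hoxb3, Hoxb4 and Hoxb5, 6 genes of the HoxA cluster and 4 of the HoxB cluster, were followed by gene symbol in RNA of mouse bone marrow cells. They are 10 of 24315 genes in each of 2 tables, 1 for LSK cells and 1 for MEP cells. LSK cells (Lin-Sca1+Kit+) hold the blood stem cells and multipotent progenitors, and MEP are the megakaryocyte-erythroid progenitors. All 10 genes were found in both tables. The genes were picked by name, as members of clusters known to be under polycomb control.

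All mice were of the C57BL/6 strain, and both cell types were taken from each animal. WT and Dnmt3a-/- had 3 libraries for each cell type, while Bcor-/- and Bcor-/-Dnmt3a-/- had 2. Replicate 1 of Bcor-/- carries the names of 2 mice in both cell types, so it was a pool. In this model the Cre recombinase is driven by the interferon-inducible Mx1 promoter, is switched on with pIpC and acts in blood cells as well as in other tissues. The labels of all mutant libraries carry the word Cre and those of WT do not. A part of Cre in the differences from WT therefore cannot be told apart from genotype. The conditional Bcor allele loses exons in the middle of the gene, and the study describes double knockout mice as developing acute erythroid leukemia. In its RNA comparisons the study calls the double knockout mice leukemic. The labels give no age or disease stage for any library, so the double knockout genotype and its leukemia cannot be told apart.

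Hox genes encode homeodomain transcription factors and lie in clusters where neighbouring genes tend to be active together. In blood, genes of the HoxA and HoxB clusters are on in stem and early progenitor cells and are shut down as cells mature, and HoxA9 together with its partner Meis1 is a well known driver of myeloid leukemia. Polycomb complexes keep Hox genes silent, trithorax proteins such as the Kmt2a methyltransferase keep them on. Bcor is a subunit of a variant polycomb repressive complex 1, and Dnmt3a is a DNA methyltransferase that acts on cytosines followed by guanine (CG).

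The complex that holds Bcor is recruited to CG-rich start sites and Dnmt3a methylates CG, so promoters of the 3 HoxA members with the largest differences in double knockout LSK (Hoxa5, Hoxa9 and Hoxa10), and of Hoxb4, the HoxB member with a promoter at hand, are shown with each CG in capitals. They are RefSeq sequences of GRCm38.p6, a later build than the one used for the tables, and are windows of 300 bases across the transcription start, mostly upstream of it. A promoter was at hand for 7 of the 10 members. Hoxa5 is at chr6:52204538-52204837 (minus strand), Hoxa9 at chr6:52227321-52227620 (minus), Hoxa10 has 2 starts at chr6:52240805-52241104 and chr6:52234890-52235189 (minus), and Hoxb4 is at chr11:96318017-96318316 (plus).
Hoxa5: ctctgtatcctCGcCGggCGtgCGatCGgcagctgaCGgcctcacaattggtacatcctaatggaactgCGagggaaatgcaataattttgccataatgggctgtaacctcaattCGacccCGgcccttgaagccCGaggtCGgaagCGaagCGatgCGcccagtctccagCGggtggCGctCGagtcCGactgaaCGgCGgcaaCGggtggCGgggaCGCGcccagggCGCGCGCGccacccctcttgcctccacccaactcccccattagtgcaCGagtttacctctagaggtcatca
Hoxa9: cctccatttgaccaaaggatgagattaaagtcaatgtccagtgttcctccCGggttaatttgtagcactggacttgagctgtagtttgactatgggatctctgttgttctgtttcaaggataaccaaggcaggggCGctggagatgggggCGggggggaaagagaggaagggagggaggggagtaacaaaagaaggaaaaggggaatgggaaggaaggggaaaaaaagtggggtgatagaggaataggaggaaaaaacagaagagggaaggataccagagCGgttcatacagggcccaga
Hoxa10, start 1: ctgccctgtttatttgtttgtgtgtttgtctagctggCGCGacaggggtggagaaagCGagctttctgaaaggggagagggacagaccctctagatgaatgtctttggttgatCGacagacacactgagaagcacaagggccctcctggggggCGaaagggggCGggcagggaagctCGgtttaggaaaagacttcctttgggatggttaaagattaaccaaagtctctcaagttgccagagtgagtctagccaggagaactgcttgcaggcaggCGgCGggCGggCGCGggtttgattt
Hoxa10, start 2: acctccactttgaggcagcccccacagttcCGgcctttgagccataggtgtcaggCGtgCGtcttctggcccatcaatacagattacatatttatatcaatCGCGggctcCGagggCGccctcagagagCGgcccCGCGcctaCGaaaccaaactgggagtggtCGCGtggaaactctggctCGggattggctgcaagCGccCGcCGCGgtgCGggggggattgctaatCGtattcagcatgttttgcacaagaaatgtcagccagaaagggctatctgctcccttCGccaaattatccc
Hoxb4: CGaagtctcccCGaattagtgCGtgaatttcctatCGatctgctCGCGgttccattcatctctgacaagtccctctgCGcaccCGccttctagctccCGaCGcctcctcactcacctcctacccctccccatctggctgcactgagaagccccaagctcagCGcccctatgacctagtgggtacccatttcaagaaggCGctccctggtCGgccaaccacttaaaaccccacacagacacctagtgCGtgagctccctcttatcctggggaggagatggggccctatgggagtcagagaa

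The promoter of Hoxa5 held 29 CG in 300 bases, and 12.9% of 32851 RefSeq mouse promoters of this length held as many. Hoxa10 had 12 at its first start and 21 at its second, and Hoxb4 had 14. Hoxa9 held 4, under the median of 7 over all promoters. Hoxa2 and Hoxa7 held 9 each and Hoxa3 held 20, so HoxA members spanned 4 to 29. A few short motifs were searched on both strands, and none of them contains another. The GATA motif AGATAA was in none of the 8 windows and in 11.2% of all promoters. The HOX-PBX motif TGATTNAT was found once, in Hoxa2 (3.22% of all promoters), and the MEIS motif TGACAG once each in Hoxa2 and Hoxa3 (19.2%). These matches are a description of letters and say nothing on binding.

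Values are FPKM, fragments counted per kilobase of transcript and scaled to the size of the library, as deposited. The files hold no read counts, and the depth of a library relative to replicate 1 of WT, read from the lowest values, ran from 0.79 to 1.32 in LSK and from 1.10 to 1.61 in MEP. The Bcor-/-Dnmt3a-/- replicates correlated with each other at r = 0.849 in LSK and 0.815 in MEP across genes, and replicates of the other genotypes at 0.971 or above. Bcor RNA was between 22.4 and 37.4 FPKM in LSK libraries of the genotypes with a Bcor deletion, highest in the library labelled Bcor-/-Dnmt3a-/- replicate 2, and between 29.5 and 35.8 in the others. Dnmt3a RNA was between 10.4 and 16.9 FPKM in LSK libraries of the genotypes with a Dnmt3a deletion, against 16.1 to 19.8 in WT. In MEP, the library labelled Bcor-/-Dnmt3a-/- replicate 1 had 6.85 FPKM of Dnmt3a, above the WT range of 5.49 to 6.64. Bcor RNA in MEP had a WT range of 21.3 to 26.9 FPKM. It was 19.5 in Bcor-/- replicate 1, under that range, and 22.4 in Bcor-/- replicate 2, inside it. In Bcor-/-Dnmt3a-/- MEP it was 19.6 in replicate 1, under the range, and 26.7 in replicate 2, inside it. Exons outside a deletion still add to these values, so they check the labels only in part. Bulk RNA cannot tell fewer cells of a type from less RNA per cell.

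Hoxa9 had the highest level of the members in WT LSK, with 24.6, 27.7 and 34.4 FPKM (28.9 ± 5.0, SD, n = 3), above every other member without overlap. Hoxa5 (9.44 ± 2.30), Hoxa7 (8.77 ± 1.14) and Hoxa10 (7.86 ± 2.17) followed and overlapped among themselves. These 4 genes, from the middle and the 5′ part of the cluster, lay above all the rest without overlap. Hoxa3 (3.89 FPKM), Hoxb3 (3.57), Hoxb4 (3.49), Hoxa2 (2.46) and Hoxb2 (1.78) followed, and each overlapped its neighbours among these 5. Hoxb5 was last, at 0.392 FPKM, under all of them. In WT MEP, Hoxa9 was again first, with 3.38, 3.17 and 6.38 FPKM (4.31 ± 1.79, SD, n = 3). The other 9 members had WT MEP means between 0.0850 (Hoxb5) and 1.25 (Hoxa7), and each overlapped its neighbour in the order. Both tables may have been scaled separately, so LSK and MEP levels stand side by side with no test.

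**Figure D1:**
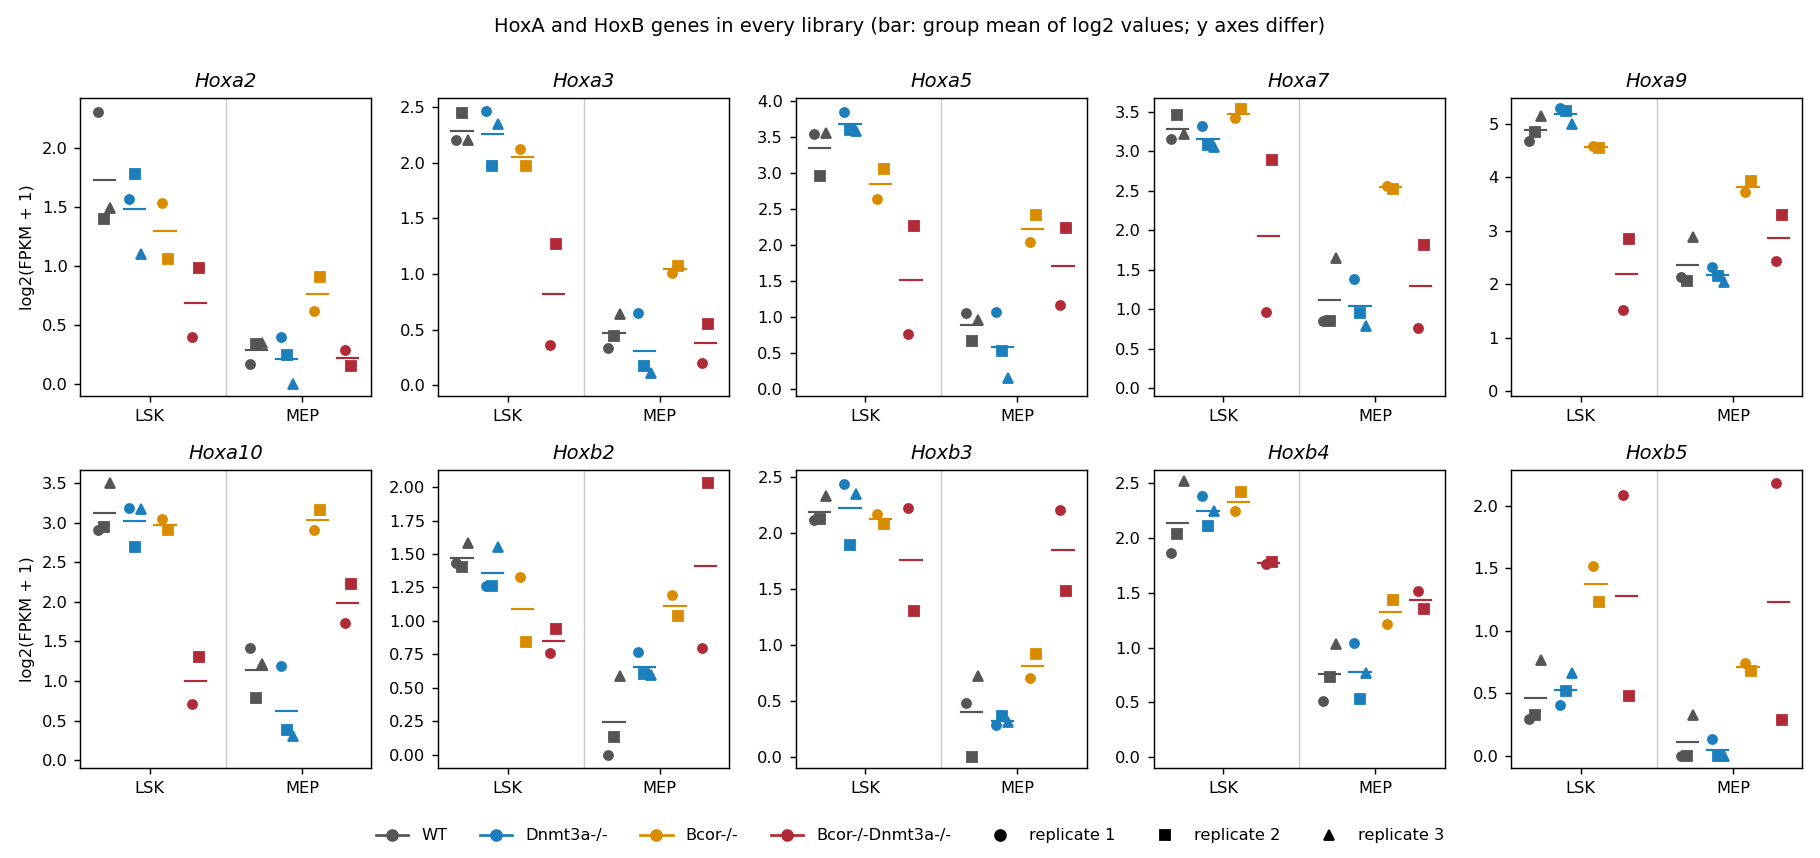
Level of each member, as log2(FPKM + 1), in the 10 LSK and the 10 MEP libraries, with 1 point per library, colour for genotype, shape for replicate number and a bar for the group mean of the log2 values. In LSK the Bcor-/-Dnmt3a-/- points of the 6 HoxA genes lie under all WT points, while in MEP both Bcor-/- points of these genes lie above all WT points.

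In Bcor-/-Dnmt3a-/- LSK, HoxA genes were lower than in WT. Hoxa9, a factor that sustains stem cell renewal, went from 24.6, 27.7 and 34.4 FPKM in WT to 1.87 and 6.21. Hoxa10, its 5′ neighbour, which promotes growth of immature myeloid cells, went from 6.52, 6.70 and 10.4 FPKM to 0.636 and 1.46. Mean FPKM was 7.16-fold lower for Hoxa9 and 7.49-fold lower for Hoxa10, and no mutant library came near the WT range. The difference of mean log2(FPKM + 1) was -2.70 for Hoxa9 (SE 0.32, limma adjusted p = 0.000409) and -2.12 for Hoxa10 (SE 0.26, adjusted p = 0.000494).

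Hoxa5, which acts in stem cell growth and in erythroid choice, had levels of 0.694 and 3.81 FPKM in LSK of the double knockout, against 10.7, 6.78 and 10.8 in WT LSK. Hoxa3, the gene for a factor of early patterning, was 0.285 and 1.42 FPKM in the mutant, against 3.61, 4.45 and 3.60 in WT. For both, the highest mutant library was under the lowest WT library. On the log2 scale Hoxa5 fell by 1.85 (SE 0.39, adjusted p = 0.00742) and Hoxa3 fell by 1.47 (SE 0.28, adjusted p = 0.00481). The size of both depended on the mutant library. Without mutant replicate 1 the difference was -1.09 for Hoxa5 and -1.01 for Hoxa3, and without mutant replicate 2 it was -2.60 and -1.92. Hoxa7 split the mutant replicates, with 0.950 FPKM in replicate 1 and 6.42 in replicate 2, against 7.94, 10.1 and 8.30 in WT. Its difference of -1.35 (SE 0.44, adjusted p = 0.0468) shrank to -0.39 without replicate 1 and was then not called. Hoxa2, the most 3′ member, was 0.316 and 0.978 FPKM in the mutant, against 3.93, 1.63 and 1.81 in WT (log2 difference -1.04, SE 0.36, unadjusted p = 0.0183, adjusted p = 0.0592).

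A gene was called where the unadjusted p was under 0.05 and the fold change exceeded 1.5. Called in this way were 7 of the 9 members tested in LSK which were lower in Bcor-/-Dnmt3a-/-, and none was higher, where 13.3% of the 11952 tested genes were called lower. With the adjusted p, 5 of them passed (Hoxa3, Hoxa5, Hoxa7, Hoxa9 and Hoxa10), against 23.7% of all genes in either direction. Both mutant libraries lay under every WT library for 8 of 9 tested members, and for 24.1% of all genes. The median difference over these 9 members was -1.35 on the log2 scale, and 0.019 over all genes. Hoxa3, Hoxa5, Hoxa9 and Hoxa10 kept an adjusted p under 0.05 whichever of the 10 LSK libraries was left out, the highest being 0.0293 for Hoxa5. With 1 variance per genotype, Hoxa9 (adjusted p = 0.00298) and Hoxa10 (0.0252) passed, while Hoxa3 (0.0713), Hoxa5 (0.054) and Hoxa7 (0.094) did not. Hoxa7 also missed with the replicate block (0.0672), with no minimum level (0.0782) and with a pseudocount of 0.1 (0.0527). Hoxa2 lost its call without WT replicate 1 or double knockout replicate 1, and Hoxb2 without any of the 3 WT libraries or without double knockout replicate 1. With so few animals, 2 libraries against 3 cannot give an exact permutation p under 0.1, so each value of p rests on the spread that limma shares across genes.

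Of the HoxB members in the same LSK cells, Hoxb2 alone was called. It had levels of 0.696 and 0.922 FPKM in LSK of the double knockout, against 1.70, 1.65 and 1.99 in WT (log2 difference -0.62, SE 0.24, unadjusted p = 0.0318, adjusted p = 0.0886). Hoxb4, known for expanding stem cells when overexpressed, was 2.40 and 2.43 FPKM in the mutant, against 2.63, 3.10 and 4.75 in WT (-0.37, SE 0.22, unadjusted p = 0.131). Hoxb3 was 3.68 FPKM in mutant replicate 1, inside the WT range of 3.32 to 4.03, and 1.46 in replicate 2 (-0.42, SE 0.29, unadjusted p = 0.171). Without mutant replicate 2 the Hoxb3 difference was 0.038, and without mutant replicate 1 it was -0.89, so its sign and size rested on single libraries. Hoxb5, a marker of long-term stem cells, was 3.24 FPKM in replicate 1 and 0.390 in replicate 2, against 0.221 to 0.702 in WT, and its mean over the table was under the minimum for a test.

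In LSK of the single knockouts no member was called. For Bcor-/-, 9 members were tested, 7.2% of all genes were called higher and 6.03% lower, and the lowest unadjusted p among the members was 0.148 (Hoxb2). Hoxa9 was 22.9 and 22.4 FPKM in Bcor-/- LSK, just under the lowest WT value (log2 difference -0.33, SE 0.32, unadjusted p = 0.339). Hoxb5 was 1.86 and 1.35 FPKM in Bcor-/- LSK, above all 6 libraries of WT and Dnmt3a-/- (0.221 to 0.702). With no minimum level its difference was 0.91 (SE 0.41, unadjusted p = 0.0559). In Dnmt3a-/- LSK no tested member was called, the differences ran from -0.25 to 0.33, and 0.209% of all genes were called higher and 0.234% lower, 156 genes having an unadjusted p under 0.05. Hoxa9 was 38.1, 36.8 and 31.0 FPKM there, overlapping WT.

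Set against Bcor-/- LSK, the double knockout had 5 HoxA genes lower and no member higher, where 14.8% of all genes were called lower. All 5 passed the adjusted p, as did 25.2% of all genes in either direction. Hoxa9 differed by -2.38 (SE 0.35, adjusted p = 0.00162), Hoxa10 by -1.97 (SE 0.29, adjusted p = 0.00148), Hoxa7 by -1.55 (SE 0.48, adjusted p = 0.0394), Hoxa5 by -1.34 (SE 0.43, adjusted p = 0.0428) and Hoxa3 by -1.23 (SE 0.31, adjusted p = 0.0176). Hoxa5 was lost when Bcor-/- replicate 2 or double knockout replicate 1 was left out. Without the latter, the difference was -0.59 for Hoxa5, -0.59 for Hoxa7 and -0.77 for Hoxa3. With 1 library left out, the adjusted p ran up to 0.202 for Hoxa5, 0.154 for Hoxa7 and 0.0892 for Hoxa3, and stayed at or under 0.0151 for Hoxa9 and 0.0144 for Hoxa10. Hoxa2, Hoxb2, Hoxb3 and Hoxb4 did not pass, with differences between -0.61 and -0.23.

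**Figure D2:**
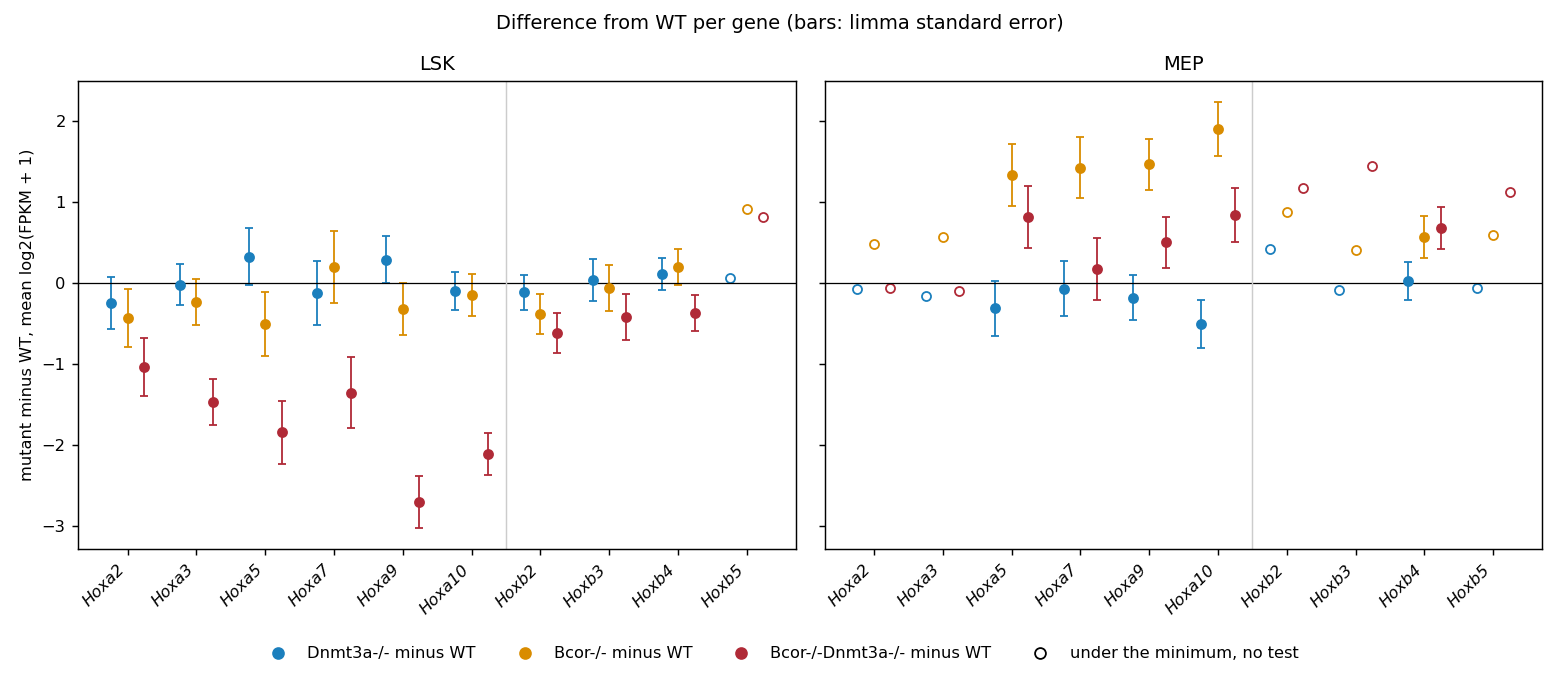
Mutant minus WT difference of mean log2(FPKM + 1) for each member in LSK (left) and MEP (right), with the limma standard error as the bar, and open points for members under the minimum mean of 1 FPKM, which were not tested. Bcor-/-Dnmt3a-/- LSK lies from -2.70 (Hoxa9) to -1.04 (Hoxa2) over the HoxA genes, and Bcor-/- MEP from 1.34 (Hoxa5) to 1.9 (Hoxa10) over the 4 HoxA genes tested.

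In MEP the pattern was another one. HoxA genes were higher in Bcor-/- MEP than in WT MEP. Hoxa10 was 6.51 and 7.97 FPKM in Bcor-/-, against 1.66, 0.719 and 1.33 in WT, a mean 5.86-fold higher. Hoxa9 was 12.2 and 14.2 FPKM in Bcor-/-, against 3.38, 3.17 and 6.38 in WT. Hoxa7 was 4.93 and 4.75 FPKM in Bcor-/-, against 0.811, 0.804 and 2.14 in WT. Hoxa5 was 3.12 and 4.35 FPKM in Bcor-/-, against 1.09, 0.587 and 0.946 in WT. No Bcor-/- library overlapped WT for any of these 4 genes. The log2 differences were 1.9 for Hoxa10 (SE 0.33, unadjusted p = 0.000345), 1.47 for Hoxa9 (SE 0.31, unadjusted p = 0.00127), 1.43 for Hoxa7 (SE 0.38, unadjusted p = 0.00497) and 1.34 for Hoxa5 (SE 0.38, unadjusted p = 0.00742).

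These 4 were called higher among the 5 members tested in MEP, where 1.23% of 10933 genes were called higher. None passed the adjusted p, which was 0.126 for Hoxa10, 0.261 for Hoxa9, 0.411 for Hoxa7 and 0.486 for Hoxa5, and 0.064% of all genes (7 genes) passed it, against 597 genes with an unadjusted p under 0.05. Over fits with 1 library left out, the adjusted p of Hoxa10 ran from 0.0287 to 1. The minimum of 1 FPKM over all libraries was met by Hoxa5 and Hoxb4 only through mutant libraries, since their WT means were 0.874 and 0.709 FPKM, so the count of 4 is not read against the share of all genes. Without Bcor-/- replicate 2, Hoxa5 was not called (1.15, unadjusted p = 0.0594).

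The other members mostly lay on the same side. Hoxa2 was 0.538 and 0.878 FPKM in Bcor-/- MEP against 0.129 to 0.274 in WT, and Hoxa3 was 1.02 and 1.10 FPKM against 0.261 to 0.556. Hoxb2 was 1.28 and 1.05 FPKM against 0 to 0.503 in WT, Hoxb4 was 1.32 and 1.71 against 0.430 to 1.04, and Hoxb5 was 0.668 and 0.594 against 0 to 0.255. Only Hoxb3 overlapped, with 0.626 and 0.896 FPKM against 0 to 0.652. In all, 9 of 10 members had both Bcor-/- libraries above every WT library, as did 12% of the 16492 genes with a value above 0 in any MEP library, the set that holds all 10. For Hoxb4, the tested HoxB member, the difference was 0.57 (SE 0.26, unadjusted p = 0.0608).

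Granulocyte-monocyte markers also differed from WT in Bcor-/- MEP. Their summed level over 7 genes was 568 and 335 FPKM in Bcor-/- MEP, against 28.5 to 243 in WT, with 4 of the 7 called higher (Elane log2 difference 2.54, unadjusted p = 0.0145), and none of the 7 was at 0 in any MEP library. In Dnmt3a-/- MEP the same sum was 597, 138 and 314 FPKM, while Hoxa9 was 4.02, 3.41 and 3.13 and the summed level of the 6 HoxA members was 8.91, 5.41 and 4.29, under both Bcor-/- libraries (28.3 and 33.2). Stem and progenitor markers summed to 166 and 142 FPKM in Bcor-/- MEP, inside the WT range of 95.1 to 193, with none of 8 tested called. The part of granulocyte-monocyte RNA in the HoxA result was not tested.

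In Dnmt3a-/- MEP no member was called, with differences between -0.51 and 0.41 over the 10 members, where 0.201% of all genes were called higher and 0.21% lower and 225 genes had an unadjusted p under 0.05. Hoxa10 was 1.28 FPKM in replicate 1 and 0.304 and 0.234 in the others, against 0.719 to 1.66 in WT. Without replicate 1 it would have been the only member called, as lower.

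In Bcor-/-Dnmt3a-/- MEP, Hoxa10 and Hoxb4 were called higher than in WT, and the replicates were apart for several members. Hoxa10 was 2.33 and 3.66 FPKM (log2 difference to WT 0.84, SE 0.33, unadjusted p = 0.033, adjusted p = 0.0818) and Hoxb4 was 1.87 and 1.56 FPKM (0.68, SE 0.26, unadjusted p = 0.0309, adjusted p = 0.0783). In this comparison 18.5% of all genes were called higher, and Hoxb4 had entered the test only through mutant libraries. Both calls were lost under quantile normalization and without WT replicate 2. Hoxa9 was 4.39 FPKM in replicate 1, inside the WT range, and 8.75 in replicate 2 (0.50, SE 0.31, unadjusted p = 0.144), and Hoxa7 was 0.702 and 2.52 (0.17, SE 0.38, unadjusted p = 0.662). Hoxa5 was 1.26 and 3.73 FPKM, both above WT (0.81, SE 0.38, unadjusted p = 0.0648).

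Hoxb3 was 3.62 and 1.8 FPKM in Bcor-/-Dnmt3a-/- MEP against 0 to 0.652 in WT, and Hoxb2 was 0.735 and 3.08 against 0 to 0.503. Hoxb5 was 3.52 FPKM in replicate 1 and 0.217 in replicate 2, the latter inside the WT range of 0 to 0.255. With no minimum level, Hoxb3 differed by 1.45 (SE 0.26, adjusted p = 0.00692) and Hoxb2 by 1.17 (SE 0.34, adjusted p = 0.0409) over 16492 genes. Both mutant libraries were above every WT library for 5 of 10 members (Hoxa5, Hoxa10, Hoxb2, Hoxb3 and Hoxb4), and for 23.2% of the 16492 genes. Against Bcor-/- MEP, the double knockout had 3 members lower, where 11.3% of all genes were, at -1.25 for Hoxa7 (SE 0.42, unadjusted p = 0.0155), -0.96 for Hoxa9 (SE 0.34, unadjusted p = 0.0206) and -1.06 for Hoxa10 (SE 0.36, unadjusted p = 0.0182). None of the 3 had an adjusted p under 0.05, and none was called without Bcor-/- replicate 2 or without double knockout replicate 1.

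As both cell types came from each mouse (a pool of 2 for Bcor-/- replicate 1), the difference of log2 levels within each mouse was compared between genotypes. For Bcor-/-, Hoxa10 differed between the cell types by -2.05 (SE 0.32, adjusted p = 0.046), which combines -0.15 in LSK with 1.9 in MEP. Hoxa5 differed by -1.84 (SE 0.28, adjusted p = 0.0456) and Hoxa9 by -1.79 (SE 0.26, adjusted p = 0.0453). In all, 7 of 9 tested members were called lower in this test, where 5.78% of 12112 genes were. Among the 7, Hoxa2, Hoxa3 and Hoxb2 were under the minimum level in MEP. An adjusted p under 0.05 was reached by 3 members, Hoxa5, Hoxa9 and Hoxa10, as by 0.289% of all genes. All 3 lost this when any library of WT, Dnmt3a-/- or Bcor-/- was left out, with adjusted p up to 0.416 for Hoxa5, 0.44 for Hoxa9 and 0.456 for Hoxa10.

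For Bcor-/-Dnmt3a-/-, 9 of 9 tested members were called lower, where 18.6% of all genes were, and 8 had an adjusted p under 0.05, against 20% of all genes in either direction. Hoxa9 differed by -3.20 (SE 0.26, adjusted p = 0.0021), Hoxa10 by -2.96 (SE 0.32, adjusted p = 0.00292) and Hoxa5 by -2.66 (SE 0.28, adjusted p = 0.00272). HoxB members took part here, with -1.87 for Hoxb3 (SE 0.27, adjusted p = 0.0051), -1.79 for Hoxb2 (SE 0.30, adjusted p = 0.00724) and -1.05 for Hoxb4 (SE 0.18, adjusted p = 0.00808). Hoxa7 (-1.53) and Hoxa3 (-1.37) passed as well, while Hoxa2 (-0.98, adjusted p = 0.0959) did not. Hoxa2, Hoxa3, Hoxb2 and Hoxb3 were under the minimum level in MEP, so the MEP side of their differences rests on low values. For Hoxa3 the difference combines -1.47 in LSK with -0.095 in MEP. Its WT MEP libraries had 0.261 to 0.556 FPKM and could fall little on this scale. With 1 variance per genotype none of the 8 had an adjusted p under 0.05 (0.0989 for Hoxa9 to 0.301 for Hoxa7), and Hoxa7 reached 0.0671 with a library left out. In double knockout mice, the mean of Hoxa9 was 4.04 FPKM in LSK and 6.57 in MEP, and in WT it was 28.9 and 4.31.

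Along the HoxB cluster, replicate 1 of Bcor-/-Dnmt3a-/- stood apart in genes that were nearly silent elsewhere. Hoxb8, a gene that blocks myeloid maturation when overexpressed, was 30.7 FPKM in LSK and 21.2 in MEP of this mouse, against at most 0.293 in the other 9 LSK libraries and 0 in the other 9 MEP libraries. Hoxb7 was 28.4 FPKM in LSK and 23.1 in MEP, against at most 0.522 and 0.131. Hoxb6 was 5.88 and 2.79 FPKM, and Hoxb9 was 1.47 and 0.919. In replicate 2 of this genotype, Hoxb7 was 0.408 FPKM in LSK and listed at 0 in MEP, and Hoxb8 was listed at 0 in both. This mouse also had the highest Hoxb5 level of the series, and the lowest LSK levels of all 6 HoxA members. Hoxb7 passed the filter in LSK (log2 difference 2.48, SE 0.99, unadjusted p = 0.0328, adjusted p = 0.0905) through that library alone, and these genes were picked out after their values had been seen.

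**Figure D3:**
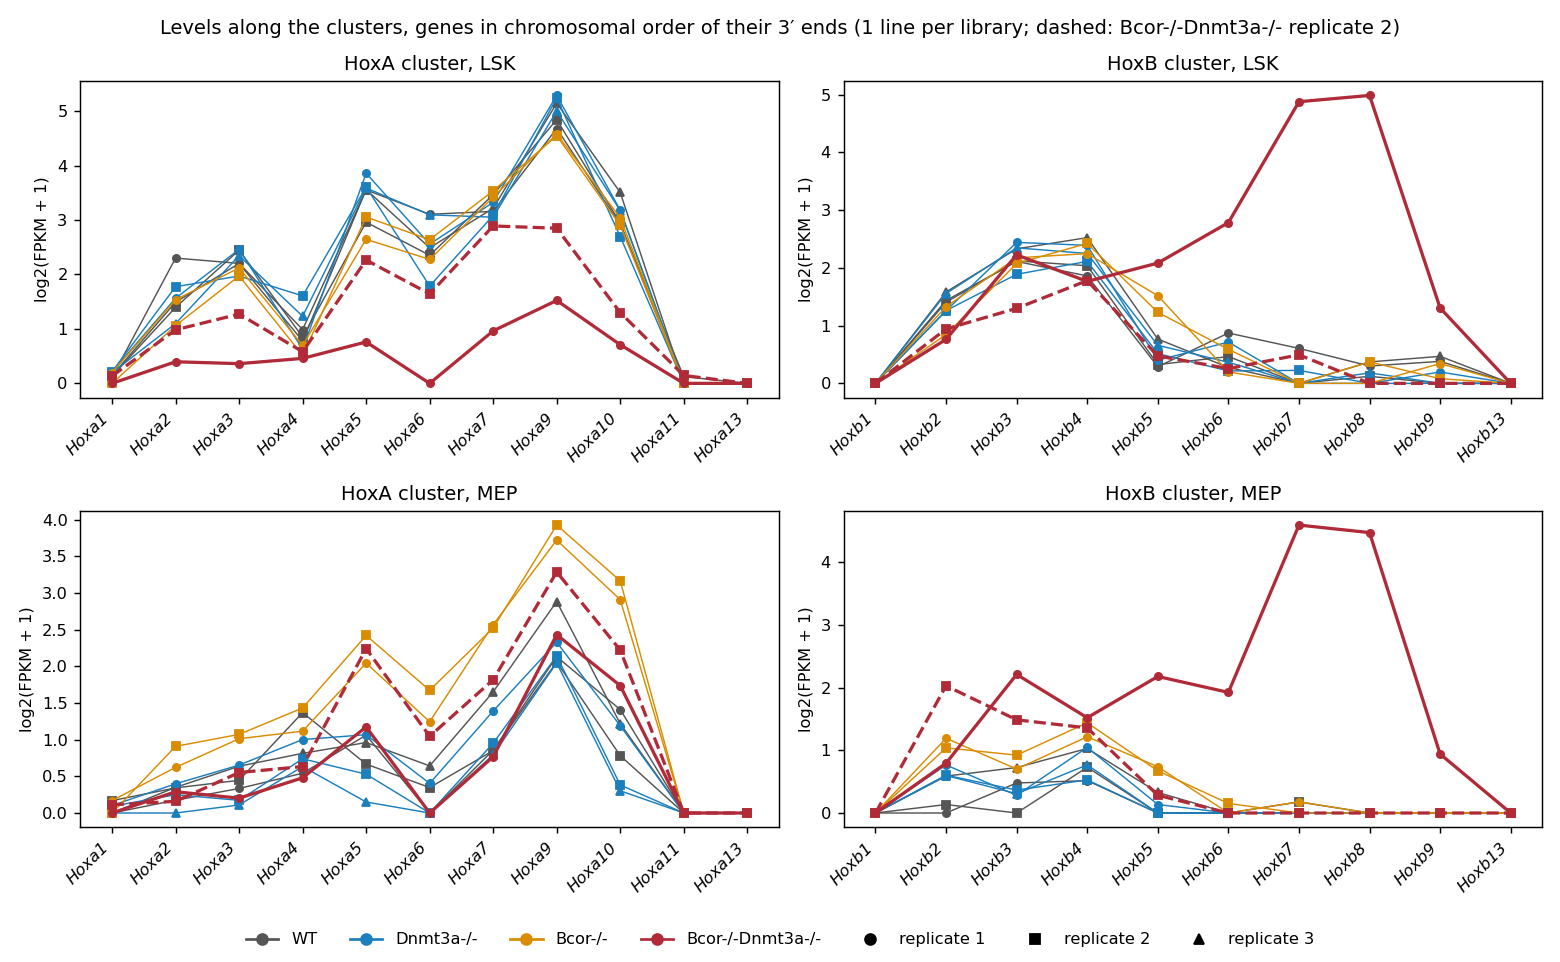
Level as log2(FPKM + 1) of the HoxA (left) and HoxB (right) genes in the chromosomal order of their 3′ ends, in LSK (top) and MEP (bottom), with 1 line per library. Replicate 1 of Bcor-/-Dnmt3a-/- (solid red) rises to 30.7 FPKM at Hoxb8 in LSK and 21.2 in MEP, while replicate 2 (dashed red) follows the other libraries there.

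Other genes of the loci gave a mixed picture. Hoxa6, between Hoxa5 and Hoxa7, was 7.60, 4.11 and 4.61 FPKM in WT LSK, and was listed at 0 and at 2.12 in Bcor-/-Dnmt3a-/- LSK (log2 difference -1.83, SE 0.51, adjusted p = 0.026). In Bcor-/- MEP it was 1.37 and 2.19 FPKM against 0 to 0.561 in WT. Skap2, the adaptor gene next to HoxA, was 95.2 to 97.4 FPKM in WT LSK and 33.1 and 61.0 in the double knockout (-1.08, SE 0.21, adjusted p = 0.00492). Skap1, the paralogue next to HoxB, went the other way, from 0.678 to 1.84 FPKM in WT LSK to 27.6 and 24.6 (3.73, SE 0.30, adjusted p = 7.21e-05), and was also higher in MEP (25.5 and 10.8 FPKM against 0.628 to 1.74, adjusted p = 0.00137). Hoxa6, Hoxb7 and Hoxb8 met the minimum level in LSK out of the 11 other HoxA and HoxB genes, with Hoxb7 and Hoxb8 there only through double knockout replicate 1, so no count is read from them. The HoxC and HoxD clusters, with 9 genes each in the tables, reached at most 0.351 FPKM. In the RefSeq models Hoxa3 overlaps Hoxa4, Hoxa5 and Hoxa6, and Hoxb3 overlaps Hoxb4, so reads of these may be shared. Hoxa3 and Hoxa5 lie on the same strand (minus), so counting by strand would not part them. Whether the counting used strand is not stated.

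Over the 10 LSK libraries, the HoxA members varied together. Pearson's r of log2(FPKM + 1) was 0.958 for Hoxa9 with Hoxa10 and 0.958 for Hoxa9 with Hoxa3, and the lowest among HoxA pairs was 0.637 (Hoxa2 with Hoxa7). Hoxb2 ran from 0.529 with Hoxa7 to 0.778 with Hoxa10, and Hoxb4 from 0.178 with Hoxa2 to 0.788 with Hoxa10. Hoxb3 ran from 0.00807 with Hoxa7 to 0.524 with Hoxa10, and Hoxb5 was negative with each, down to -0.752 with Hoxa5. These values describe 10 libraries of 4 genotypes, so they mix differences between genotypes with those between mice. Among 9493 genes whose mean reached 5 FPKM, the genes most like the mean of the 6 HoxA members were Ptpre (r = 0.999, and 0.965 over the 8 libraries without the double knockout), Slco3a1 (0.996 and 0.906), Ppif (0.994 and 0.937), Cd27 (0.994 and 0.910) and Ltbp3 (0.993 and 0.885). For the mean of the 3 tested HoxB members they were Echdc1 (0.951 and 0.832), Slc16a13 (0.947 and 0.803), Odf3b (0.946 and 0.835), Lzts2 (0.939 and 0.837) and Cep131 (0.930 and 0.781).

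The TALE cofactors bind DNA together with Hox proteins. In Bcor-/-Dnmt3a-/- LSK, 2 of 6 tested were lower and 1 was higher, where 15% of all genes were called higher and 13.3% lower, and the median difference was -0.19 over the list against 0.019 over all genes. Meis1, the partner of HoxA9, went from 70.5, 49.4 and 58.1 FPKM in WT to 0.930 and 7.53 (-3.88, adjusted p = 0.00055). Pbx4 fell by 1.44 (adjusted p = 0.000944) and Meis3 differed by 1.5 (adjusted p = 0.0474), the latter from 12.1 FPKM in replicate 2 and 2.22 in replicate 1. In Bcor-/- LSK, Pbx4 was called lower (-0.73, unadjusted p = 0.00563, adjusted p = 0.0632). In Bcor-/- MEP, where 2.76% of all genes were called in either direction, none of 5 was called, with Meis1 at 10.6 and 13.3 FPKM against 2.84 to 13.2 in WT. In the double knockout MEP, Pbx4 alone of these 5 was called, as lower, where 12.4% of all genes were called lower.

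Among 14 tested activators of Hox genes, 1 was higher and 1 lower in Bcor-/-Dnmt3a-/- LSK, where 28.3% of all genes were called in either direction. These were Aff1, a subunit of an elongation complex (1.78, adjusted p = 6.71e-05), and Wdr5, a core subunit of Kmt2 complexes (-0.64, adjusted p = 0.00133). None of the 14 was called in Bcor-/- MEP, while 2 were higher and 4 lower in the double knockout MEP (30.9% of all genes). Of 29 polycomb genes, 2 were higher and 3 lower in Bcor-/-Dnmt3a-/- LSK, beside 28.3% of all genes in either direction, with Phc2 at 0.75 (adjusted p = 0.0017) and Skp1a at -0.73 (adjusted p = 0.00915). In Bcor-/- MEP, Bcorl1, the close relative of Bcor, was higher (1.08, unadjusted p = 0.0015, adjusted p = 0.283) and Phf19, an accessory subunit of polycomb repressive complex 2, was lower (-1.05, unadjusted p = 0.00417, adjusted p = 0.407). In the double knockout MEP, 5 were higher and 2 lower, beside 30.9% of all genes in either direction. In Bcor-/- LSK, where 13.2% of all genes were called, 1 activator was higher, 1 activator was lower, and 1 polycomb gene was lower. Of 10 genes known as HoxA9 targets, 3 were lower and 2 higher in Bcor-/-Dnmt3a-/- LSK (13.3% and 15% of all genes), among them Lmo2 (-1.89, adjusted p = 6.18e-05), Flt3 (-1.69, adjusted p = 0.000478) and Camk2d (1.77, adjusted p = 8.92e-05). None of the 10 was called in Bcor-/- MEP, and 4 were higher in the double knockout MEP, where 18.5% of all genes were. In Bcor-/- LSK, 1 of the 10 was called, Flt3, as lower (-1.01, limma adjusted p = 0.0272), where 6.03% of all genes were called lower.

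Markers of several cell types also differed from WT in Bcor-/-Dnmt3a-/- LSK. Stem and progenitor markers summed to 182 and 374 FPKM there, against 1118 to 1305 in WT, with 8 of 10 called lower and none at 0. Cd34 was 5.87 and 37.3 FPKM against 548 to 650 in WT, and Kit, which defines the gate, was 47.7 and 19.4 against 148 to 174. Ly6a, which encodes Sca1, was not lower (0.85, unadjusted p = 0.156). Erythroid markers summed to 5447 and 20610 FPKM against 79.1 to 168, with 10 of 10 higher. B cell markers summed to 2176 and 697 FPKM against 9.62 to 40.3, with 4 of 5 higher. Macrophage markers summed to 1295 in replicate 1, the library with Hoxb7 and Hoxb8, and to 41.8 in replicate 2, against 30.3 to 259 in WT. None of these 5 was called. T and NK cell markers included Cd3e, at 8.03 and 20.4 FPKM against at most 0.517 in WT, and Cd3g, at 12.3 and 57.3 against at most 0.855, with 3 of 4 higher and Nkg7 lower, so that their sum (88.0 and 261) was not above WT in both libraries (211 to 230). Skap1, described above as higher, encodes a T cell adaptor. Megakaryocyte markers summed to 14.3 and 49.5 FPKM against 97.4 to 117, with 4 of 6 lower. Granulocyte-monocyte markers summed to 744 and 2492 FPKM against 1582 to 3635, with none of 7 called. No marker of these lists was at 0 in either library. In MEP of the double knockout, B cell markers summed to 1688 and 73.3 FPKM and macrophage markers to 680 and 7.53, against at most 93.4 and 3.28 in WT. Erythroid markers summed to 3718 and 66867 FPKM in these libraries against 1167 to 1751 in WT, with 4 of 10 higher, Hba-a1 at 1055 and 55204, and Hbb-b1 listed at 0 in replicate 2. T and NK cell markers summed to 77.6 and 187 against 32.6 to 67.2, with 2 of 3 tested higher. Granulocyte-monocyte markers summed to 248 and 370 against 28.5 to 243, with 3 of 7 higher and none lower. Megakaryocyte markers summed to 17.8 and 70.6 against 86.4 to 334, with 2 of 6 lower and Ppbp listed at 0 in replicate 1. The part of these cells in the Hox values was not tested.

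In Bcor-/- LSK, stem and progenitor markers summed to 852 and 575 FPKM, under every WT library, and granulocyte-monocyte markers to 12941 and 21265 against 1582 to 3635. Erythroid markers summed to 219 and 297 FPKM there against 79.1 to 168, with 5 of 10 higher. T and NK cell markers summed to 449 and 616 against 211 to 230, with 1 of 4 higher. Nearly all of that sum was Nkg7 (448 and 615 FPKM), the 1 called. Cd3e (0 and 0.115 FPKM), Cd3g (0.199 and 0.170) and Gzma (0.718 and 0.205) were not above the WT range. The part of these cells in the Bcor-/- values was not tested. The 6 HoxA members summed to 50.4 and 50.8 FPKM in these libraries and to 57.3 to 69.3 in WT. In the double knockout the same sum was 4.76 and 20.3 in LSK, and 9.05 and 19.2 in MEP against 5.91 to 11.6 in WT. The 4 HoxB members summed to 10.01 and 5.2 FPKM in double knockout LSK against 7.87 to 11.5 in WT, and to 9.74 and 6.66 in double knockout MEP against 0.756 to 2.45 in WT.

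**Figure D4:**
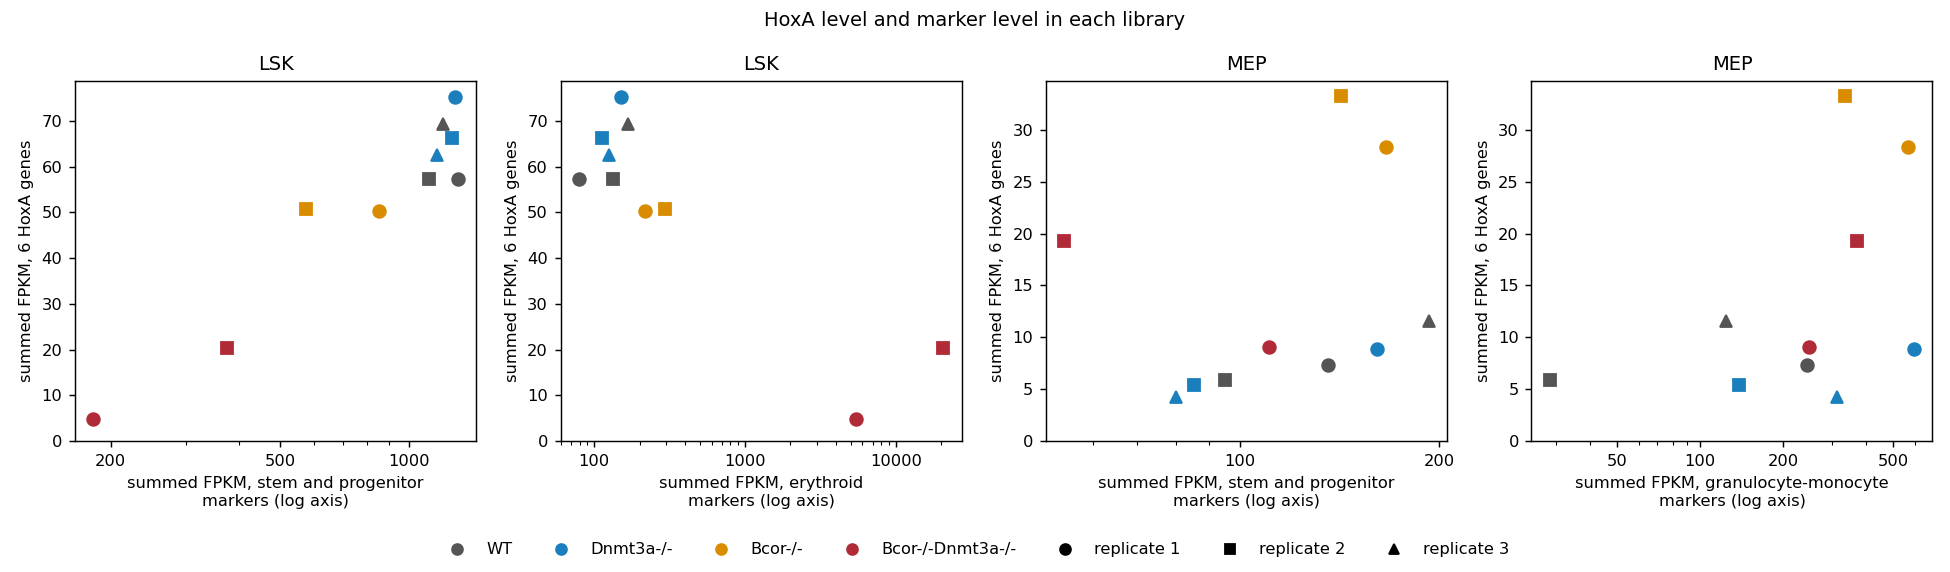
Summed FPKM of the 6 HoxA members (vertical) against the summed FPKM of marker genes (horizontal, log axis), with 1 point per library, for stem and progenitor and erythroid markers in LSK and for stem and progenitor and granulocyte-monocyte markers in MEP. Both Bcor-/- MEP points (28.3 and 33.2) lie above the rest on the HoxA axis. Their stem and progenitor sums lie inside the WT range. Their granulocyte-monocyte sums (568 and 335) lie above WT (28.5 to 243) and within the spread of Dnmt3a-/- (138 to 597). The part of marker RNA was not tested. The double knockout LSK points (4.76 and 20.3) are lowest on both the HoxA and the stem and progenitor axis.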

How the data were processed

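RNA with a polyA tail from sorted LSK and MEP cells was extracted with an RNeasy kit and sequenced as Illumina libraries. The authors deposited FPKM per gene, 1 table for each cell type, and the submitters' processing notes name STAR 2.5.1b, SAMtools 1.9, Cufflinks 2.2.1 and mm9. The annotation, the strand setting and the scaling between tables are not given in the sources used here.

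From these values log2(FPKM + 1) was computed, and a gene was tested where its mean over a table's 10 libraries reached 1 FPKM. One mean per genotype was fitted with limma 3.58.1 (R 4.3.3) over the whole table with a mean-variance trend, all tests being two-sided. A gene was called, after the study's filter, where the unadjusted p was under 0.05 and the fold change exceeded 1.5, and Benjamini-Hochberg adjusted p-values over all tested genes were set beside the calls. The cell types were compared through the LSK minus MEP difference of each mouse, whose pairing comes from the mouse named in the labels (genes whose mean reached 1 FPKM in either table). Deviations of the LSK and the MEP library of a mouse correlated at 0.00065 to 0.559. All 10 members, every other Hox gene above the minimum and the lists of neighbours, cofactors, activators, polycomb genes, targets and markers were named by rule, with examples by lowest p in double knockout LSK. One gene of the cofactor list is not reported here and is left out of its counts. Members and lists were chosen with earlier results of these data known. Fold changes on this scale understate the change of low genes. The fit was run on simulated data, and no result given here rests on that run. Figures were drawn with matplotlib 3.10.9. As no counts are in the files, the absolute depth is unknown.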

Additional observations from a re-analysis of the deposited data

Results flagged for a closer look

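The effect of Bcor loss differed between the cell types for 3 members, by a test of LSK minus MEP differences within mice. The Bcor-/- effect in LSK minus that in MEP was -1.84 for Hoxa5, -1.79 for Hoxa9 and -2.05 for Hoxa10 on the log2 scale (limma adjusted p = 0.0456, 0.0453 and 0.046). With 1 library left out these ran up to 0.416, 0.44 and 0.456. Both Bcor-/- replicates lay under all 3 WT mice in each of these differences, as they did for 23.2% of all genes, and 0.289% of all genes passed the adjusted p. Stem and progenitor, granulocyte-monocyte and erythroid markers in LSK and granulocyte-monocyte markers in MEP differ from WT in these libraries, and their part was not tested.

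For Bcor-/-Dnmt3a-/- the same test picked out 8 members, where 20% of all genes passed. Among HoxA genes the difference was -1.37 for Hoxa3, -2.66 for Hoxa5, -1.53 for Hoxa7, -3.20 for Hoxa9 and -2.96 for Hoxa10. Among HoxB genes it was -1.79 for Hoxb2, -1.87 for Hoxb3 and -1.05 for Hoxb4. Hoxa3, Hoxb2 and Hoxb3 were under the minimum level in MEP. Adjusted p-values ran from 0.0021 (Hoxa9) to 0.0211 (Hoxa7), and both double knockout mice lay under all WT mice for each, as for 25.5% of all genes. With 1 variance per genotype none of the 8 passed (adjusted p from 0.0989 to 0.301). Erythroid, B cell and stem cell markers differ between genotypes in these libraries as well, and their part in the differences was not tested. Groups of 2 or 3 libraries are too small for a test of single outlying libraries.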

How the results depend on the processing

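Counts of called members in LSK kept within 1.5 times their value under another pseudocount (0.1), no minimum level, quantile normalization, 1 variance per genotype, the adjusted p and the replicate block. With each library left out in turn, 5 to 7 members were lower in double knockout LSK against WT and 4 to 5 against Bcor-/-, and 3 to 5 were higher in Bcor-/- MEP (0 with the adjusted p). A fit that leaves 1 library in a group assumes that it varies like the other groups. The LSK minus MEP counts were 5 to 7 for Bcor-/- (3 with the adjusted p) and 8 to 9 for the double knockout.

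MEP results of the double knockout were less stable. Against WT, 2 members were called, and the count was 1 with a pseudocount of 0.1, 5 with no minimum level, 0 with quantile normalization, 0 with 1 variance per genotype, 1 with the replicate block, 0 with the adjusted p and 0 to 3 with a library left out. Against Bcor-/-, 3 were called, and 5 with no minimum level, 0 with 1 variance per genotype, 0 with the adjusted p and 0 to 4 with a library left out. In Dnmt3a-/- MEP the count of 0 became 1 without replicate 1 of Dnmt3a-/- (range 0 to 1). More genes enter with no minimum level, and for the other settings the cause was not tested. Quantile normalization moved the median of all genes from 0.018 to -0.18 in double knockout MEP against WT and from 0.019 to -0.097 in LSK.

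Of 670 values of 42 single differences under the alternatives, 603 kept direction and call, 62 lost the call, 4 gained it and 1 changed sign, Hoxb3 in double knockout LSK against WT (0.038 without double knockout replicate 2, range -0.89 to 0.038). Hoxb2 in double knockout LSK also lost its call with the replicate block (-0.54, unadjusted p = 0.0903), and both Hoxb2 and Hoxa2 lost it there with 1 variance per genotype. Same-numbered mice of different genotypes were not taken as paired, since the labels give no link between them. Of the same-numbered pairs, 0 of 13 in LSK and 8 of 13 in MEP correlated above 0.1. In a group of 2 the deviations from the group mean mirror each other, so the 13 are not separate checks. A differently numbered pair in MEP, WT replicate 3 with Dnmt3a-/- replicate 1, correlated at 0.313. The absolute depth of the libraries is unknown, so differences among values under 1 FPKM have no counting error to set beside them.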

Other observations

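Hoxb5os, the antisense RNA at Hoxb5, was 4.11 and 1.41 FPKM in Bcor-/- LSK, 0.928 to 1.78 in WT and 1.24 and 0.544 in the double knockout. Hoxaas3, from the HoxA locus, was 2.01, 0.982 and 2.93 FPKM in WT LSK, and was listed at 0 and at 1.01 in the double knockout. Outside the clusters, Snx10 beyond Skap2 was 62.0 to 68.0 FPKM in WT LSK, 46.8 and 37.03 in Bcor-/- and 27.7 and 21.0 in the double knockout (limma adjusted p = 0.0361 and 0.000209). Snx11 beyond HoxB went the other way, from 8.24 to 9.98 FPKM in WT LSK to 14.9 and 14.9 in Bcor-/- and 14.3 and 17.3 in the double knockout (adjusted p = 0.0362 and 0.00657). Hoxa4 stayed under the minimum level in both tables, with at most 2.05 FPKM in a library.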
